A study of Homo sapiens with 4 samples.

Results

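The HOX genes measured in DU145 cells, an established line from a metastasis of a human prostate carcinoma, were covered by 47 probe sets of 29 genes. They were chosen as every probe set that the platform annotation gives to exactly 1 gene with a symbol made of HOX, a cluster letter from A to D and a number. They come from 40914 probe sets naming 1 gene and 54715 in all. The HOXA cluster was represented by 1 probe set, of HOXA2, the HOXB cluster by 20 probe sets of 10 genes, the HOXC cluster by 9 of 9 genes and the HOXD cluster by 17 of 9 genes. Other HOXA genes were not analysed here. There were 17 HOX genes with 1 probe set and 12 with 2 or more.

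Total RNA was measured on 4 single-channel Affymetrix arrays. The control group was DU145 cells carrying an shRNA against GFP (shGFP, 2 arrays), and the knockdown group was DU145 cells carrying an shRNA against DCUN1D1 (shDCUN1D1, 2 arrays), the gene of an adaptor protein that promotes the attachment of NEDD8 to cullins. Both groups share the line, the lentiviral shRNA vector and, in the records, 16 h of culture in DMEM before extraction. The methods give a longer time from infection to RNA collection, and these accounts were not reconciled here. The treatment record also lists DMSO with no dose and no group. Because the methods describe different shRNAs against DCUN1D1 while the records do not give the one behind each array, the shRNA and the replicate of the knockdown arrays cannot be told apart. The records name biological duplicates without saying that they came from separate infections, so the p-values measure the spread between these arrays.

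HOX genes encode homeodomain transcription factors that give cells their position along the body axis. Within a cluster the genes lie in the order in which they are used, from anterior (low numbers) to posterior (high numbers), and genes with the same number in different clusters are paralogues. HOX proteins bind DNA together with PBX and MEIS cofactors, Polycomb complexes keep silent clusters shut, Trithorax group methyltransferases keep active ones open, and retinoic acid induces the anterior genes first. In the prostate the posterior genes are the ones best known, HOXB13 above all, which encodes a partner of the androgen receptor in luminal cells.

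RefSeq start-site windows (GRCh38.p14, 250 bases before to 50 after the start) were matched for 12 of the 29 HOX genes. HOXC4 and HOXC5, which have separate probe sets here, share 1 window, so that there were 11 distinct windows. Shown are this shared window and the HOXD windows with the most and the fewest CpG dinucleotides, with every CG in capitals. CpG dinucleotides numbered 15 in the HOXC4 and HOXC5 window (chr12:54016638-54016937, plus strand), 36 in that of HOXD1 (chr2:176188418-176188717, plus strand) and 4 in that of HOXD4 (chr2:176151300-176151599, plus strand).
HOXC4 and HOXC5: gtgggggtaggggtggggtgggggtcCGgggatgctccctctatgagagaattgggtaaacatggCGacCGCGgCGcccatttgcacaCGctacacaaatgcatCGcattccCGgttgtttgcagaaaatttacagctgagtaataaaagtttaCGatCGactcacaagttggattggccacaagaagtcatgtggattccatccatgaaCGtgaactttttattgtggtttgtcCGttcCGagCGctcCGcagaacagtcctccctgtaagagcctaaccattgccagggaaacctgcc
HOXD1: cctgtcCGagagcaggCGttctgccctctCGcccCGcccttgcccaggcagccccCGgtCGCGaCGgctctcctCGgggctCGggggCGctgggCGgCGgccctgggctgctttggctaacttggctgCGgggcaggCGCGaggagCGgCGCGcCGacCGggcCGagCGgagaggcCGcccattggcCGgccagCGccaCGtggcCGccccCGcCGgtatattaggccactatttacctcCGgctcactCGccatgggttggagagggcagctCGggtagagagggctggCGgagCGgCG
HOXD4: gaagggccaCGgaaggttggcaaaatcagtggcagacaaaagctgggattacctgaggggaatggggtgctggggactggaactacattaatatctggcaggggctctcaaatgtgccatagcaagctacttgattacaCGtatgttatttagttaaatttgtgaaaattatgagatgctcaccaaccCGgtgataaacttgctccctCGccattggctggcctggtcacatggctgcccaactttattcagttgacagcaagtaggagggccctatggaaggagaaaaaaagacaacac

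The 11 HOX windows held a median of 23 CpG dinucleotides against 14 over all 35116 windows of the same length, and 8 of the 11 were above that median. The letters TGATNNAT, a form of the site bound by PBX and HOX proteins together, were found on either strand in 3 of the 11, those of HOXA2, HOXB1 and HOXD11, and in 7.40% of all windows. A match to letters is a description and not a bound site. All of the genes with the windows shown had signals below the comparison control described next in every array.

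Detection was judged within each array, by setting a HOX probe set against that array's own nonspecific control with 20 G or C bases, a probe set with no human target. This control read 2.97 and 3.30 in the control arrays and 2.48 and 2.51 in the knockdown arrays on the log2 signal scale. It was therefore lower in both knockdown arrays, as were 20 of the 23 nonspecific controls, with a median difference of -0.29. That difference varied with base content. It was -0.04 for the control with 3 G or C bases, -0.29 for 14 and -0.64 for 20. The G and C content of the HOX probes themselves was not used here, so exceeding the control is a comparison and not a proof of a transcript.

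No HOX probe set exceeded the control in all 4 arrays, against 4.39% of all probe sets. In at least 1 array 7 of the 47 did (14.9%), against 23.9% of all probe sets. By array, 1 HOX probe set exceeded it in control replicate 1 (2.13%, against 8.97% of all), 1 in control replicate 2 (2.13%, against 6.07%), 2 in knockdown replicate 1 (4.26%, against 18.7%) and 7 in knockdown replicate 2 (14.9%, against 14.5%). HOX probe sets thus exceeded the control less often than all probe sets in each array but knockdown replicate 2, where the shares were close, and this was not tested.

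The 7 probe sets lay in the HOXB and HOXC clusters. They comprised 4 of 20 in HOXB (HOXB1, HOXB3, HOXB5 and HOXB9), 3 of 9 in HOXC (HOXC6, HOXC10 and HOXC11), 0 of 17 in HOXD and 0 of 1 in HOXA. Along the clusters they comprised 2 of 14 anterior probe sets (numbers 1 to 4), 2 of 14 central ones (5 to 8) and 3 of 19 posterior ones (9 to 13). Genes with no probe set above the control in any array were HOXA2, HOXB2, HOXB4, HOXB6, HOXB7, HOXB8, HOXB13, HOXC4, HOXC5, HOXC8, HOXC9, HOXC12, HOXC13 and every HOXD gene analysed, namely HOXD1, HOXD3, HOXD4, HOXD8, HOXD9, HOXD10, HOXD11, HOXD12 and HOXD13.

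**Figure D1:**
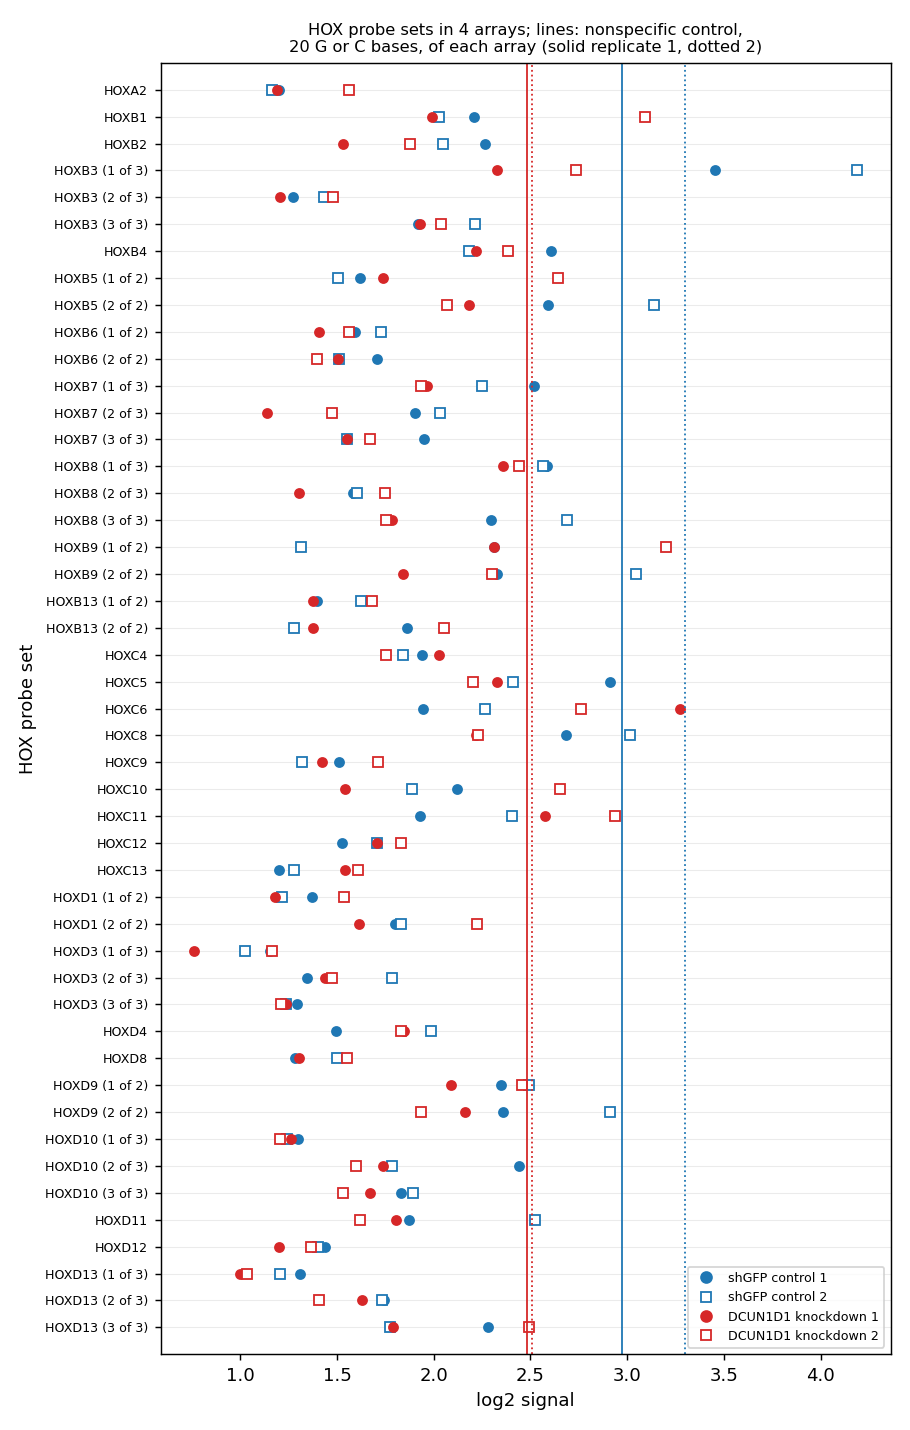
Each row is 1 of the 47 HOX probe sets, in cluster order, and the horizontal axis is the log2 signal. Points are the 4 arrays (blue control, red knockdown) and the vertical lines are each array's nonspecific control with 20 G or C bases, 2.97 and 3.30 in control arrays against 2.48 and 2.51 in knockdown arrays. Only 1 HOXB3 probe set lies to the right of both blue lines, and no HOXD point lies to the right of its own line.

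In both control arrays 1 HOX probe set exceeded the control (2.13%, against 5.27% of all probe sets), and it belonged to HOXB3, an anterior gene known from hindbrain patterning and blood progenitors. Its signals for 208414_PM_s_at were 3.46 and 4.19 in the control arrays and 2.33 and 2.73 in the knockdown arrays. The knockdown values lay below both control values, and knockdown replicate 1 also lay below its own nonspecific control while knockdown replicate 2 lay above. Against the control with 18 G or C bases this HOXB3 probe set was above in all 4 arrays.

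In both knockdown arrays 2 HOX probe sets exceeded the control (4.26%, against 10.6% of all probe sets), those of HOXC6 and HOXC11. HOXC6, a central gene whose transcript is used as a urine marker of prostate cancer, read 1.95 and 2.27 in control arrays and 3.27 and 2.76 in knockdown arrays. HOXC11, a posterior gene of limb and kidney development, read 1.93 and 2.41 in control arrays and 2.57 and 2.94 in knockdown arrays. Both genes had knockdown values above both control values, but their count rests on a threshold that was itself lower in the knockdown arrays. Against the control with 18 G or C bases, 6 probe sets were above in both knockdown arrays, those of HOXB3, HOXB4, HOXB8, HOXB9, HOXC6 and HOXC11. The share of all probe sets above that control is not given here.

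The other 4 probe sets exceeded the control in knockdown replicate 2 alone. HOXB1, the most anterior HOXB gene, read 2.21 and 2.03 in control arrays and 1.99 and 3.09 in knockdown arrays, so that knockdown replicate 1 lay below and replicate 2 above both controls. HOXC10, a posterior gene of hindlimb and spinal cord, read 2.12 and 1.89 in control arrays and 1.54 and 2.65 in knockdown arrays, a difference of 0.09 (SE 0.41). HOXB5 by 205600_PM_x_at read 1.62 and 1.51 against 1.74 and 2.64, and HOXB9 by 216417_PM_x_at read 2.31 and 1.32 against 2.31 and 3.20. Both carry the suffix that the array maker gives to probe sets with some probes shared between genes, as 3 HOX probe sets do, so that these signals may hold other transcripts.

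HOXB13, the lineage gene of luminal prostate, stayed below the control in every array by both of its probe sets. By 230105_PM_at it read 1.86 and 1.28 in control arrays and 1.37 and 2.05 in knockdown arrays, and by 209844_PM_at 1.40 and 1.62 against 1.38 and 1.68. The groups overlapped in both, with differences of 0.14 (SE 0.32) and 0.02 (SE 0.18). Over all 47 probe sets the median signal was 1.87 and 1.79 in control arrays and 1.67 and 1.76 in knockdown arrays, against medians of 1.63, 1.63, 1.60 and 1.65 over all probe sets.

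Knockdown was set against shGFP with limma fitted over all 40914 probe sets, to ask whether DCUN1D1 depletion moved HOX transcripts. After Benjamini-Hochberg adjustment limma called 0 of the 47, and 0% of all probe sets, the lowest adjusted p being 0.625. The smallest p that 2 arrays against 2 allow in a two-sided exact permutation test is 0.333. At an unadjusted limma p under 0.05, 2 HOX probe sets were higher (HOXC6 and HOXC13), against 2.3% of all, and 4 were lower (HOXB3, HOXB7, HOXB8 and HOXD13), against 5.25% of all. The methods' t-test, on the same values, gave 1 higher and 1 lower at an unadjusted p under 0.05 and 0 after Benjamini-Hochberg adjustment.

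The study's own kind of call asks that the lower bound of a fold change, from a 90% interval, exceed 1.2. By that bound, built here from limma's standard error, 0 HOX probe sets were higher (against 1.18% of all) and 2 were lower (4.26%, against 2.38% of all), 1 of HOXB3 and 1 of HOXB7. HOXB3 by 208414_PM_s_at had a mean of 3.82 ± 0.52 in control arrays and 2.53 ± 0.29 in knockdown arrays (SD, n = 2), a log2 fold change of -1.29 (SE 0.45) and a lower bound of 1.31-fold, with a limma adjusted p of 0.625. HOXB7, a central gene often studied in carcinoma lines, read 1.90 and 2.03 in control arrays and 1.14 and 1.47 in knockdown arrays by 204779_PM_s_at, a log2 fold change of -0.66 (SE 0.19), a lower bound of 1.22-fold and a limma adjusted p of 0.625. In both, the knockdown values lay below both control values, and HOXB7 was below the nonspecific control in every array. The nonspecific control itself was lower in knockdown arrays, and its part in these differences was not tested.

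**Figure D2:**
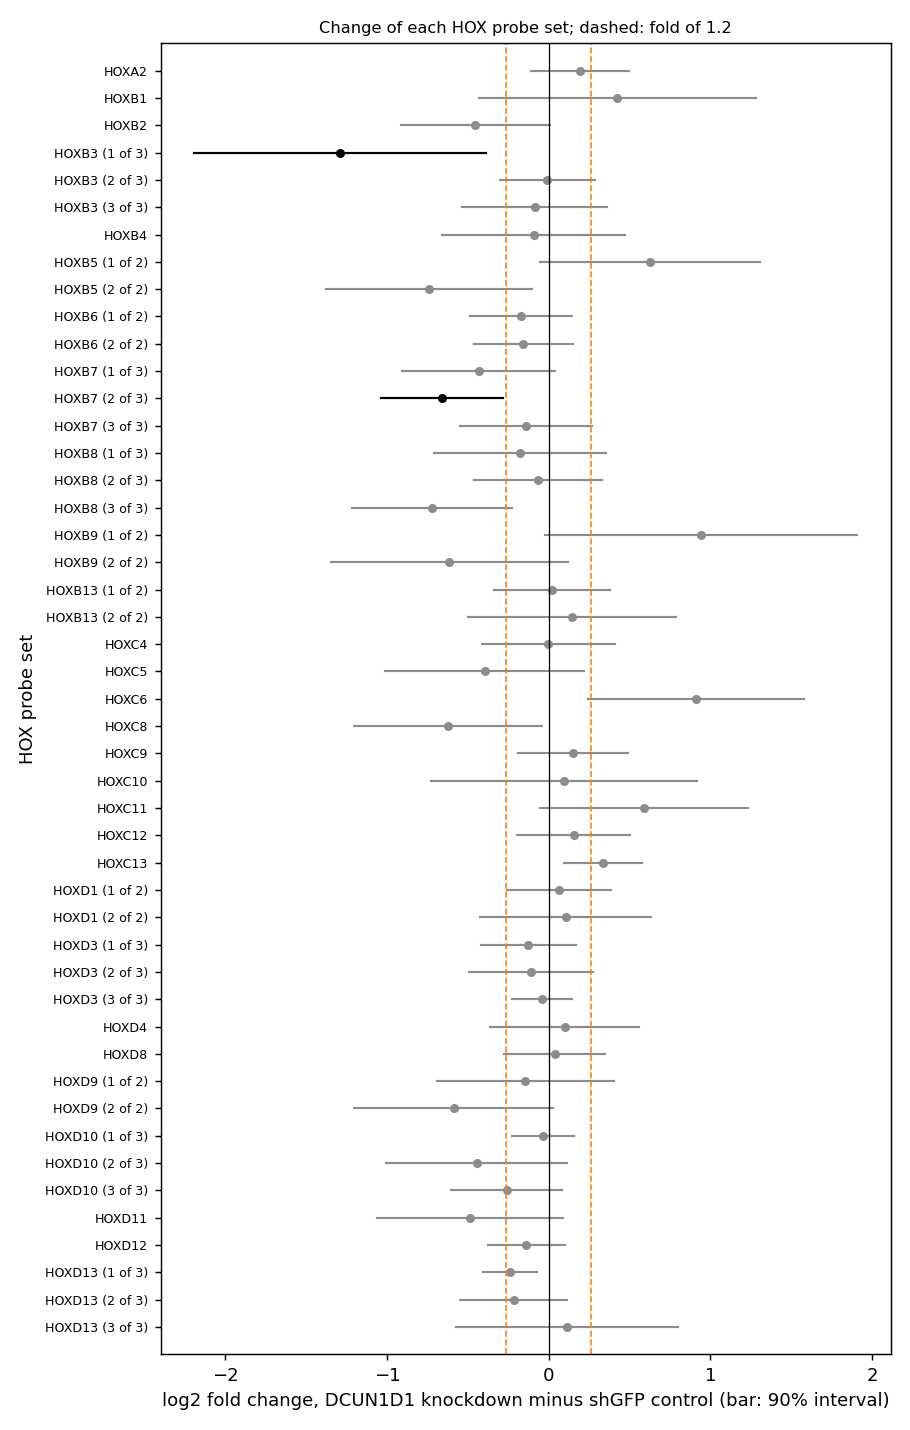
Each row is 1 of the 47 HOX probe sets, and the horizontal axis is the log2 fold change of knockdown over control. Bars are 90% intervals from limma, the dashed lines mark a fold of 1.2 in each direction, and the 2 probe sets past the bound, of HOXB3 and HOXB7, are black.

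Both calls ended when single arrays were left out. For HOXB3 the log2 fold change was -0.92 without control replicate 2 and -1.09 without knockdown replicate 1, short of the bound, and -1.66 without control replicate 1 and -1.49 without knockdown replicate 2, past it. HOXB7 stayed past the bound only without knockdown replicate 2 (-0.83), and was short of it without control replicate 1 (-0.73), control replicate 2 (-0.60) and knockdown replicate 1 (-0.49). With each array centred on its nonspecific controls the values were -1.0 and -0.37, neither past the bound. Under that centring 4 of the 47 HOX probe sets were past it in the other direction, against 2590 of 40914 over all. They were HOXC6 at 1.2, HOXB9 by 216417_PM_x_at at 1.24, HOXB5 by 205600_PM_x_at at 0.92 and HOXC13 at 0.63. That centring moved the median of all probe sets from -0.01 to 0.28. It shifts every probe set of an array by the same amount, whatever its G and C content.

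**Figure D3:**
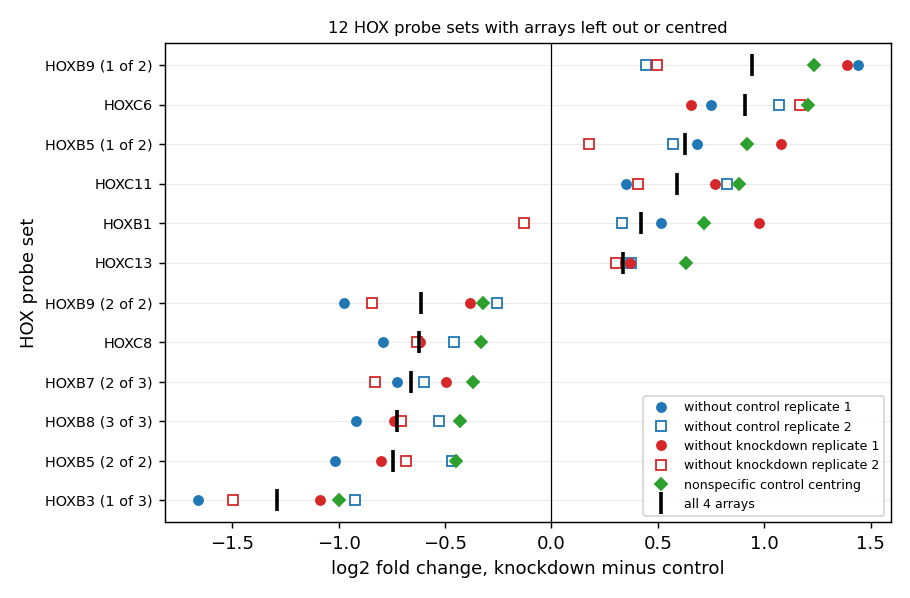
The 12 HOX probe sets with the 6 largest differences in either direction are in rows, with the log2 fold change of knockdown over control on the horizontal axis. Black bars use all 4 arrays, blue and red points leave out 1 array, and green diamonds centre each array on its nonspecific controls. HOXB1 crosses 0 without knockdown replicate 2 (-0.13), and HOXB3 runs from -1.66 to -0.92.

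Among the other central HOXB and HOXC genes, which pattern the thoracic body wall and skeleton, several differences were negative without passing the bound. HOXB8 by 230114_PM_at read 2.30 and 2.69 in control arrays and 1.78 and 1.75 in knockdown arrays, a difference of -0.72 (SE 0.25). HOXB5 by 205601_PM_s_at read 2.59 and 3.14 against 2.18 and 2.07, a difference of -0.74 (SE 0.32). HOXC8 read 2.68 and 3.01 against 2.22 and 2.23, a difference of -0.62 (SE 0.29). In each the knockdown arrays lay below both control arrays, and under nonspecific control centring each stayed negative and short of the bound. Without control replicate 2 the HOXB5 value was -0.47, and without control replicate 1 HOXB8 was past the bound at -0.92.

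The posterior HOXB9, by 226461_PM_at, read 2.33 and 3.04 in control arrays and 1.84 and 2.30 in knockdown arrays, a difference of -0.61 (SE 0.36) that was -0.26 without control replicate 2. HOXC5, which shares its start-site window with HOXC4, read 2.91 and 2.41 against 2.33 and 2.20, a difference of -0.40 (SE 0.31). HOXC4 read 1.94 and 1.84 against 2.03 and 1.76, a difference of -0.0017 (SE 0.20). The knockdown arrays were thus below both controls for HOXC5 and overlapped them for HOXC4, and the difference between the pair was not tested.

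Positive differences were led by HOXB9, HOXC6, HOXB5, HOXC11, HOXB1 and HOXC13. HOXC6 had a mean of 2.11 ± 0.23 in control arrays and 3.02 ± 0.36 in knockdown arrays (SD, n = 2), a difference of 0.91 (SE 0.33) with a lower bound of 1.18-fold, just short of 1.2. Leaving out knockdown replicate 2 brought it past the bound at 1.17, and leaving out knockdown replicate 1 gave 0.65. HOXC11 differed by 0.59 (SE 0.32), from 0.35 without control replicate 1 to 0.83 without control replicate 2.

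HOXC13, the last gene of its cluster and a regulator of hair keratins, read 1.2 and 1.28 in control arrays and 1.54 and 1.61 in knockdown arrays, all below the nonspecific control. Its difference was 0.34 (SE 0.12), between 0.30 and 0.38 with any 1 array left out, and its lower bound was 1.07-fold. The differences of HOXB9 by 216417_PM_x_at (0.94, SE 0.48), HOXB5 by 205600_PM_x_at (0.63, SE 0.34) and HOXB1 (0.42, SE 0.43) turned on single arrays. In that order the values were 0.50, 0.18 and -0.13 when knockdown replicate 2 was left out, and 1.39, 1.08 and 0.97, each past the bound, when knockdown replicate 1 was left out. Without control replicate 1 HOXB9 was past it as well, at 1.44, and without control replicate 2 it was 0.45.

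Different probe sets of a gene did not always share a direction. Of the 12 HOX genes with 2 or more, 7 had differences below 0 in every probe set (HOXB3, HOXB6, HOXB7, HOXB8, HOXD3, HOXD9 and HOXD10), 2 above 0 in every one (HOXB13 and HOXD1) and 3 were mixed (HOXB5, HOXB9 and HOXD13). HOXB3 gave -1.29 by 208414_PM_s_at but -0.01 by 228904_PM_at and -0.09 by 232979_PM_at. HOXB7 gave -0.66, -0.43 and -0.14, and HOXB8 gave -0.72, -0.18 and -0.07. The gene counts by direction were not tested, and the shares over all genes with 2 or more probe sets are not given here. These signs are without centring. Under nonspecific control centring 12 of the 47 HOX probe sets were below 0, against 6644 of 40914 over all.

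HOXB5 and HOXB9 each had 1 probe set on either side of 0. Averaged over the probe sets of a gene, the difference was -0.46 for HOXB3, -0.41 for HOXB7, -0.06 for HOXB5 and 0.16 for HOXB9, and none of these passed the bound. In that fit of 1 value a gene HOXC6, with its 1 probe set, was past it.

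**Figure D4:**
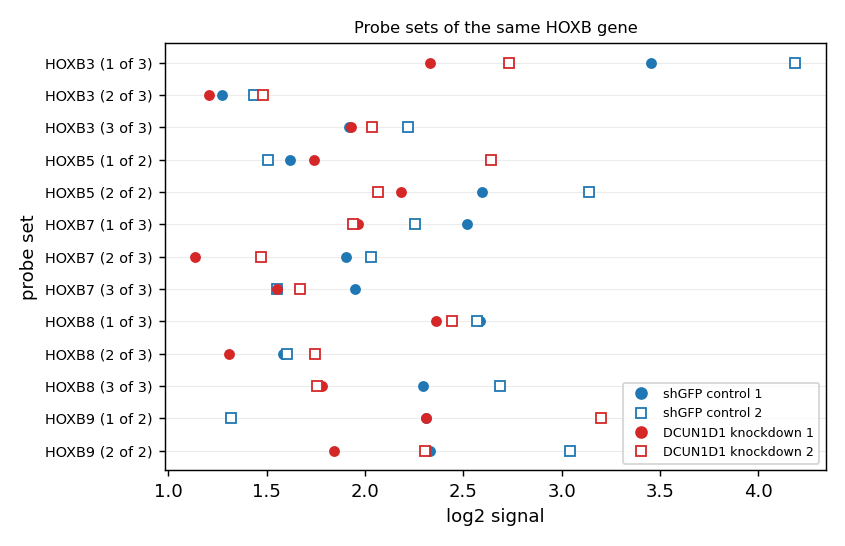
Rows are the probe sets of 5 HOXB genes that have more than 1, and the horizontal axis is the log2 signal. Points are the 4 arrays, blue for control and red for knockdown. Knockdown points lie to the left of control points for 1 of the 3 HOXB3 probe sets, and on opposite sides for the 2 HOXB5 probe sets. For HOXB9 (1 of 2), control and knockdown replicate 1 coincide at 2.31.

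By cluster, the median log2 fold change was -0.15 over the 20 HOXB probe sets, 0.15 over the 9 of HOXC and -0.13 over the 17 of HOXD, but under nonspecific control centring all of these were above 0, at 0.14, 0.44 and 0.17. HOXA2 read 1.2 and 1.16 in control arrays and 1.19 and 1.56 in knockdown arrays, a difference of 0.19 that overlapped between groups. Over all 47 the median was -0.09, against -0.01 over all probe sets, and it turned to 0.20 under nonspecific control centring, against 0.28 over all. Relative to all probe sets the HOX median stood at -0.08. This centring cannot alter that value because it moves every probe set by the same amount. Nonspecific controls of different G and C content differed by unlike amounts, and the part of that in the HOX median was not tested. The individual differences ran from -1.29 to 0.94.

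The 30 of 47 HOX probe sets with a difference below 0 (63.8%, against 51.7% of all) included 15 of 20 in HOXB, 12 of 17 in HOXD and 3 of 9 in HOXC. Under nonspecific control centring 12 of 47 were below 0, against 6644 of 40914 over all. Both knockdown arrays were below both control arrays for 20 HOX probe sets (42.6%, against 25% of all), and above them for 4 (8.51%, against 17.9% of all). After nonspecific control centring these became 5 below (10.6%, against 6.37% of all) and 21 above (44.7%, against 56.6% of all). These are counts without a test. The counts take in probe sets below the nonspecific control, and several probe sets can read 1 gene.

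Along the clusters the median difference was -0.02 over anterior, -0.17 over central and -0.04 over posterior probe sets, each of which the centring raises by the same 0.29. In the central part of HOXB, which covers HOXB5 to HOXB8, 9 of 10 probe sets had a difference below 0, and 4 of 10 under nonspecific control centring. The posterior HOXD genes, known from limb digits and the urogenital tract, were below 0 in 9 of 10 probe sets, and in 3 of 10 under that centring. The posterior HOXC genes were above 0 in 5 of 5, from 0.09 to 0.59. The centring raises each by the same amount and so could not turn them. Over all 40914 probe sets 21156 were below 0 and 19758 above, and 6644 were below 0 under that centring.

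No HOXD probe set passed the bound. HOXD9 by 205605_PM_at read 2.36 and 2.91 in control arrays and 2.16 and 1.94 in knockdown arrays, a difference of -0.59 (SE 0.31). HOXD11 read 1.87 and 2.52 against 1.80 and 1.62, a difference of -0.49 (SE 0.29), and HOXD10 by 229400_PM_at read 2.44 and 1.79 against 1.74 and 1.60, a difference of -0.45 (SE 0.28). In all 3 the knockdown arrays were below both controls, and each member was below the nonspecific control throughout. HOXD13 by 207397_PM_s_at read 1.31 and 1.21 against 1.00 and 1.03, a difference of -0.24 (SE 0.08) at signals that in every array were below the nonspecific control with 12 G or C bases.

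Genes that act with or upstream of HOX proteins were read through the brightest probe set of each. For comparison, 2.38% of all probe sets were lower past the bound and 1.18% higher. In a fit of the brightest probe set of every gene, 720 of 19774 genes were lower past it and 311 higher. Of 8 TALE cofactors measured, 1 was lower past the bound and 0 higher. It was PBX2, a DNA-binding partner of HOX proteins, at 3.31 and 3.76 in control arrays and 2.18 and 2.48 in knockdown arrays, a difference of -1.20 (SE 0.37). The groups did not overlap, but the mean over its 4 probe sets was -0.64, short of the bound, as was its value without control replicate 2 (-0.97), without knockdown replicate 1 (-1.05) or under nonspecific control centring (-0.91). PBX3 and MEIS2 were above the nonspecific control in all 4 arrays, with differences of -0.27 (SE 0.81) and 0.41 (SE 0.51).

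Of 15 genes of Polycomb repressive complex 1, 1 was lower past the bound and 0 higher. It was PCGF2, a RING finger subunit, at 2.75 and 4.01 in control arrays and 1.93 and 2.24 in knockdown arrays, a difference of -1.30 (SE 0.51). The call ended without control replicate 2 (-0.67), without knockdown replicate 1 (-1.14), under nonspecific control centring (-1.01) and in the mean over its 4 probe sets (-0.30). Over the 15 genes of complex 1 the median was 0.19, with 7 below 0. RYBP, BMI1 and PCGF1 differed by 2.14 (SE 1.198), 1.43 (SE 0.85) and 1.12 (SE 0.65), and none of them passed. Both knockdown arrays were above both control arrays for RYBP and PCGF1, while the groups overlapped for BMI1. Of 11 genes of complex 2, 0 passed in either direction. Of these, RBBP7, RBBP4, MTF2, EED and PHF1 were above the nonspecific control in all 4 arrays. EZH2, its methyltransferase, read 2.82 and 1.56 against 3.10 and 3.15, a difference of 0.94 (SE 0.49). Of 19 Trithorax group and COMPASS genes, known as activators of HOX clusters, 0 passed in either direction by the brightest probe set, and DPY30, KMT2A, KDM6B and KMT2B were above the control in all 4 arrays. KMT2D and KMT2C differed by 2.02 (SE 1.33) and 1.45 (SE 0.94), and 9 of the 19 genes were below 0. Dimmer probe sets of this list passed in both directions, with KMT2A higher at 1.21 (SE 0.47) and KMT2B and MLLT1 lower at -1.64 (SE 0.47) and -0.87 (SE 0.26).

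Of 13 genes of retinoic acid signalling, 2 were lower past the bound and 0 higher. CRABP2, which carries retinoic acid to its nuclear receptors, read 3.48 and 3.98 in control arrays and 2.28 and 2.03 in knockdown arrays, a difference of -1.58 (SE 0.37) with a lower bound of 1.77-fold. The knockdown arrays lay well below both controls, and CRABP2 was past the bound with any array left out and under nonspecific control centring. RARA, a retinoic acid receptor, read 2.91 and 2.57 against 2.05 and 1.66, a difference of -0.89 (SE 0.29). It was below the nonspecific control throughout and short of the bound without control replicate 1 (-0.72), control replicate 2 (-1.06) or knockdown replicate 2 (-0.69), under nonspecific control centring (-0.60) and over the mean of its 5 probe sets (-0.24). ALDH1A3 differed by 2.56 (SE 1.98) without passing, at 7.90 in knockdown replicate 1 and 1.77 in knockdown replicate 2. Of the 13 genes, 9 were below 0. Of 6 CDX and ParaHox genes, relatives of the HOX genes, 0 passed in either direction.

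Among 24 neighbours and noncoding genes of the clusters, 1 was lower past the bound and 0 higher. It was EVX1, the homeobox gene beside the HOXA cluster, at 3.50 and 3.79 in control arrays and 2.35 and 2.61 in knockdown arrays, a difference of -1.17 (SE 0.37). The call ended without control replicate 1 (-1.32), control replicate 2 (-1.03) or knockdown replicate 1 (-1.04), and under nonspecific control centring (-0.88). Antisense transcripts HOXA11-AS, HOXB-AS3 and HOXA-AS2 differed by -0.87 (SE 0.33), -0.86 (SE 0.41) and -0.68 (SE 0.29), and none passed. The means over their probe sets were -0.55, -0.38 and -0.19. Noncoding genes of the same list with differences above 0 included HAGLR (0.60, SE 0.30), HOTTIP (0.41, SE 0.22) and HOXD-AS2 (0.21, SE 0.32), and over the 24 genes the median was 0.03, with 11 below 0.

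Of 8 genes listed for geminin and the cullin ligases, DCUN1D1 itself among them, 1 was higher past the bound and 0 lower. It was DDB1, the adaptor of cullin 4 ligases, at 1.77 and 1.81 in control arrays and 2.92 and 2.41 in knockdown arrays, a difference of 0.88 (SE 0.28). The call ended without control replicate 1 (0.85), control replicate 2 (0.90) or knockdown replicate 1 (0.62). CUL3, RBX1 and CUL1 were above the nonspecific control in all 4 arrays, with differences of 0.24, -0.24 and 0.32 by their brightest probe sets. Dimmer probe sets passed the bound for CUL1, lower at -1.24 (SE 0.31), and for CUL4B, higher at 0.80 (SE 0.27).

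Facts of the arrays bear on these values. DCUN1D1 itself, by the brightest of its 6 probe sets, read 2.55 and 1.99 in control arrays and 1.60 and 1.45 in knockdown arrays, a difference of -0.75 (SE 0.26) short of the bound and below the nonspecific control in every array, with 4 of the 6 below 0 and 2 above. The list of epithelial markers holds 8 epithelial genes and VIM, the gene of a mesenchymal filament protein. By brightest probe sets KRT8 alone of the 8 was above the control in all 4 arrays, as was VIM, and 6, among them EPCAM, CDH1, KRT19 and KRT7, were above it in none, while KRT18 read 1.68 and 1.63 in control arrays and 7.62 and 1.69 in knockdown arrays. VIM was higher past the bound at 0.81 (SE 0.27), with a lower bound of 1.2033-fold, and lost the call without control replicate 2 (0.53) or knockdown replicate 1 (0.56), by the mean of its probe sets (0.14), and under quantile normalization (0.62), median centring, both signal filters, and without the variance trend, with the robust variance model or with unmoderated standard errors. A dimmer KRT8 probe set was lower past the bound at -1.89 (SE 0.33), against 0.02 (SE 0.45) by the brightest. By brightest probe sets, luminal prostate markers were above the nonspecific control in all 4 arrays for 1 of 7 genes (KLK4). Fibroblast markers were for 1 of 6 (COL1A1), and endothelial (0 of 5) and leukocyte (0 of 6) markers for none. The share of all genes above it by brightest probe sets is not given here, so these counts have no comparison. The brightest probe sets of COL1A1 and KRT8 carry the suffix for probes shared between genes. A dimmer COL1A1 probe set was lower past the bound at -1.85 (SE 0.48), against 0.41 (SE 0.65) by the brightest. Summed log2 signals of the leukocyte markers were 9.87 and 10.5 in control arrays and 9.50 and 10.3 in knockdown arrays, of the endothelial ones 8.91 and 8.84 against 8.30 and 8.11, and of the fibroblast ones 12.6 and 14.1 against 11.9 and 14.1. Across probe sets, knockdown replicate 1 correlated with the other arrays at 0.661 to 0.746 and the remaining pairs at 0.827 to 0.916, where probe sets are not independent, so knockdown replicate 1 stands apart. Across the 47 HOX probe sets it was knockdown replicate 2 that correlated least with the control arrays, at 0.626 and 0.477, against 0.698 and 0.668 for knockdown replicate 1 and 0.817 between the control arrays. The 4 HOX probe sets above the nonspecific control in knockdown replicate 2 alone rest on that array, and HOX values without either knockdown array are given above.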

How the data were processed

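RNA of 4 DU145 samples, 2 shGFP and 2 shDCUN1D1, was hybridised to single-channel Affymetrix arrays from 1 µg of total RNA. The values deposited by the authors are log2 signals, 1 for each probe set and array. Affymetrix Expression Console, without a version, is given in the submitters' processing notes, whereas the methods give dChip and a smoothing spline, and it was not settled here which of them made the values. The methods also name another array type than the probe sets belong to. The values were used without further scaling.

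Of all probe sets, 40914 name 1 gene and were tested. Those naming several genes (864), none (12835) or an array control (102) were left out, as was 1 naming both MIR10B and HOXD4. The 29 HOX symbols all matched the RefSeq table (GRCh38.p14). limma 3.58.1 in R 4.3.3 was fitted with a variance trend, and adjusted p-values are by Benjamini-Hochberg over all probe sets at 0.05. A probe set was past the bound when the nearer end of the 90% interval exceeded a fold of 1.2. The script was tested on simulated data.

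Precision rests on 2 arrays a group and on signal over background. Members and gene lists were chosen with earlier results of these data known. HOX probe sets were named when above the control with 20 G or C bases on both arrays of a condition, past the bound, or among the 6 largest differences in either direction. From each list, members past the bound and up to 4 others were planned to be named. Further HOX probe sets and list members were named after their values were seen, to complete counts or to show both directions. Alternatives covered scaling, filters, probe set summaries, variance models, thresholds, a replicate block and leaving out each array.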

Additional observations from a re-analysis of the deposited data

Results flagged for a closer look

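One probe set outside the comparisons names both MIR10B and HOXD4, and so could not be given to a single gene. It read 1.79 and 1.74 in control arrays and 2.04 and 1.93 in knockdown arrays, a difference of 0.22 with both knockdown arrays above both control arrays. It was looked at because it is a HOX signal left out of the counts and above its level in the control group. Every value was below the nonspecific control with 20 G or C bases, and the difference was not tested. The probe set of HOXD4 alone read 1.5 and 1.98 against 1.85 and 1.83, with the groups overlapping.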

How the results depend on the processing

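Probe sets higher past the bound numbered 0, and 4 under nonspecific control centring, 1 by gene means over probe sets, 1 without the variance trend, 2 with the bound at a fold above 1.0, and 0 to 3 with 1 array left out. Those lower numbered 2, and 3 without the variance trend. They numbered 0 under nonspecific control centring, by gene means over probe sets, with the bound above 1.5 or with unmoderated standard errors. They numbered 1 with a filter above the median signal or above the nonspecific control, or with the brightest probe set per gene. With the bound above 1.0 there were 6. Against 0 by limma's adjusted p, 2 HOX probe sets passed the methods' t-test and 6 limma at an unadjusted p under 0.05. Over all 40914 probe sets these numbered 2928 and 3085. The median log2 fold change of -0.09 was 0.20 under nonspecific control centring, -1.29 in the 1 probe set left by the filter above the nonspecific control, and -0.20 to -0.0531 with 1 array left out. Probe sets above the nonspecific control in both control arrays (1) numbered 0 against the highest control and 24 against the median of the controls, those in both knockdown arrays (2) 6 against the control of 18 G or C bases, 0 and 36, and those in all 4 arrays (0) 1 against the control of 18 and 23 against the median. The shares of all probe sets above these other controls are not given here, so these counts do not show detection. HOXB1 turned to -0.13 without knockdown replicate 2, and the gene means turned HOXB5 by 205600_PM_x_at to -0.0571 and HOXB9 by 226461_PM_at to 0.16. Quantile normalization, median centring and the robust variance model changed no HOX call, while VIM was short of the bound under each. The cause of these changes was not tested.

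With the replicate number as a block, 0 HOX probe sets were higher past the bound and 2 lower, with no log2 fold change altered, while DDB1 and EVX1 fell short of it. Deviations of same-numbered arrays correlated at -0.04 over all probe sets, so the numbers were not taken as pairing. Over all probe sets the bound gave 481 higher and 974 lower, 505 and 669 with the block, 2590 and 322 under nonspecific control centring, 120 and 355 with the filter above the nonspecific control, 172 and 412 by gene means, 311 and 720 by brightest probe sets, 2296 and 4076 with the bound above 1.0, 105 and 310 above 1.5, 297 and 986 with unmoderated standard errors, 47 and 503 without control replicate 2, 1203 and 878 without knockdown replicate 1, and 4008 and 870 without knockdown replicate 2, where limma's adjusted p called 2602 probe sets and 0 of HOX. Signals near the nonspecific controls limit what 2 arrays a group can show of HOX genes.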
